A study of Homo sapiens with 12 samples.

Results

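The variants described here are short reporter windows in which asparagine or glutamine is the last amino acid coded before a premature stop codon. They were chosen by sequence alone from windows of 10 bases: a stop codon (TAA, TAG or TGA) at bases 7 to 9, a sense codon at bases 1 to 3 (the penultimate codon), and AAC or AAT (asparagine) or CAA or CAG (glutamine) at bases 4 to 6 (the last codon). The EJC-independent reporter library listed 1643 such windows among 41955 variants, 764 with asparagine and 879 with glutamine, out of 2928 possible. The EJC-enhanced library listed 2103 among 51306 variants, 997 with asparagine and 1106 with glutamine. By codon, the EJC-independent table held 445 AAC, 319 AAT, 434 CAG and 445 CAA windows, and the EJC-enhanced table held 543 AAC, 454 AAT, 550 CAG and 556 CAA windows. Both tables shared 1394 windows with a mean count of 10 or more. Windows with TGG, a tryptophan codon, in place of the stop codon were the controls, 608 with these last codons in the EJC-independent table and 849 in the EJC-enhanced table.

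All libraries came from HEK293T, a line derived from human embryonic kidney cells, that carried either reporter library, inserted by Cre-Lox recombination at a single place in the genome. The 4 groups were EJC-independent reporter with SMG1i, EJC-independent reporter with DMSO, EJC-enhanced reporter with SMG1i and EJC-enhanced reporter with DMSO. SMG1i, an inhibitor of the SMG1 kinase, was given at 0.5 µM for 24 hours, DMSO is its solvent, and each group has 3 libraries of the 12 in all. The labels do not say whether the 3 libraries of a group came from separate cultures, so the deposited errors and p-values may measure technical spread only. Genomic coordinates of the insertion were not stated by the sources used here, and windows are placed by their position around the stop codon.

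Nonsense-mediated mRNA decay (NMD) removes mRNAs on which translation ends early, and the kinase SMG1 acts in it by phosphorylating the helicase UPF1. When a ribosome meets a stop codon, the release factor reads the stop codon in the A site while the tRNA of the last codon, with the peptide attached, sits in the P site. An exon junction complex (EJC) left on the mRNA downstream of the stop codon enhances decay, and some targets are degraded without it. Asparagine and glutamine are the amides of aspartate and glutamate and differ from each other by a methylene group in the side chain. Their codons share the middle base A with those of aspartate, glutamate, histidine, lysine and tyrosine.

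The windows below were chosen by depth alone: for each of the 4 codons, they are the set of TAA, TAG, TGA and TGG windows whose lowest mean count over both tables was highest. All 4 sets had the proline codon CCC in penultimate place and C after the stop codon. They are written 5′ to 3′, with the last codon in capitals.
AAC with TAA: cccAACtaac
AAC with TAG: cccAACtagc
AAC with TGA: cccAACtgac
AAC with TGG: cccAACtggc
AAT with TAA: cccAATtaac
AAT with TAG: cccAATtagc
AAT with TGA: cccAATtgac
AAT with TGG: cccAATtggc
CAG with TAA: cccCAGtaac
CAG with TAG: cccCAGtagc
CAG with TGA: cccCAGtgac
CAG with TGG: cccCAGtggc
CAA with TAA: cccCAAtaac
CAA with TAG: cccCAAtagc
CAA with TGA: cccCAAtgac
CAA with TGG: cccCAAtggc

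Each table holds 1 comparison of SMG1i with DMSO per variant and no value per library, so values per library cannot be given and the depth per library is not known. A window's response is its log2 fold change in the authors' deposited table with the sign turned, read as more RNA under SMG1i than under DMSO. The tables do not say which treatment is the numerator: if it were SMG1i, every sign of the response would turn. The tables were normalized separately, so reporters are compared only after subtraction of TGG windows or of other last codons of the same table. Single windows are imprecise. The median mean normalized count of windows with a mean count of 10 or more was 169 for AAC, 136 for AAT, 173 for CAG and 180 for CAA, against 252 for windows with other last codons, in the EJC-independent table. In the EJC-enhanced table it was 113, 67.7, 99.5 and 97.1 in the same order of codons, against 148. The median deposited standard error of a response was 0.42 for asparagine, 0.40 for glutamine and 0.33 for other last codons in the EJC-independent table, and 0.67, 0.64 and 0.55 in the EJC-enhanced table.

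In the deepest sets, each stop window had a positive response in both tables and each TGG window lay near 0. With AAC in the EJC-independent reporter, the authors' deposited table gave 1.61 ± 0.11 before TAA, 1.80 ± 0.10 before TAG and 1.71 ± 0.10 before TGA, against -0.07 ± 0.10 before TGG (response ± deposited standard error). With AAC in the EJC-enhanced reporter, the authors' deposited table gave 2.18 ± 0.24, 2.61 ± 0.28 and 1.85 ± 0.34 before the same stop codons, against -0.07 ± 0.23 before TGG. The AAT set of the EJC-independent reporter gave 1.36 ± 0.12, 1.47 ± 0.30 and 1.77 ± 0.09 before TAA, TAG and TGA in the authors' deposited table, against 0.36 ± 0.27 before TGG. The AAT set of the EJC-enhanced reporter gave 2.12 ± 0.32, 2.55 ± 0.37 and 2.25 ± 0.38 in the authors' deposited table, against 0.16 ± 0.26 before TGG. The stop windows of both asparagine codons thus stood at more than 3 deposited standard errors from 0, and the TGG windows within 2. For CAG in the EJC-independent reporter, the authors' deposited table gave 1.30 ± 0.11 before TAA, 1.74 ± 0.18 before TAG and 1.50 ± 0.11 before TGA, against -0.18 ± 0.10 before TGG. For CAA it gave, in the authors' deposited table of the same reporter, 1.44 ± 0.09, 1.22 ± 0.11 and 1.31 ± 0.10, against 0.18 ± 0.10 before TGG. The 6 glutamine stop windows of the EJC-enhanced reporter lay between 1.77 ± 0.43 (CAG with TAG) and 2.76 ± 0.36 (CAA with TGA) in the authors' deposited table, against -0.05 ± 0.24 for CAG and -0.08 ± 0.23 for CAA before TGG.

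Across all windows, RNA with asparagine or glutamine before a stop codon differed 2.86-fold to 5.13-fold between the inhibitor and DMSO, relative to TGG windows. The direction, higher under the inhibitor, is not a result. It is the reading chosen because stop windows lie on one side of TGG windows. In the EJC-independent reporter, stop windows exceeded TGG windows with the same flanking bases by 1.55 on the log2 scale for asparagine (95% interval 1.47 to 1.62, 543 matched pairs), which is 2.92-fold, and by 1.51 for glutamine (1.45 to 1.58, 671 pairs), which is 2.86-fold. For the other last codons the same difference was 1.74 (1.73 to 1.75). The EJC-enhanced difference was 2.36 for asparagine (2.29 to 2.43, 904 pairs), or 5.13-fold, and 2.26 for glutamine (2.20 to 2.32, 1041 pairs), or 4.79-fold, against 2.26 for the other last codons (2.25 to 2.27). All intervals are normal 95% intervals of a mean, from its standard error over matched sequence contexts of the same libraries, not over cultures. A TGG window was paired with each listed stop window of the same flanking bases, so pairs share TGG windows. They were counted as independent, and the intervals of stop minus TGG may be too narrow. By codon, the stop minus TGG difference in the EJC-independent reporter was 1.50 for AAC, 1.63 for AAT, 1.57 for CAG and 1.46 for CAA. The EJC-enhanced reporter gave 2.40 for AAC, 2.31 for AAT, 2.35 for CAG and 2.17 for CAA.

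Windows were counted as called at an adjusted p under 0.05 in the authors' deposited table. Higher and lower under SMG1i follow the sign of the response as read here, which that table does not state. In the EJC-independent reporter, 577 of 762 asparagine and 678 of 876 glutamine windows were called higher in the authors' deposited table (75.7% and 77.4%). This compares with 85.3% of windows with other last codons, 84.8% of all stop windows and 64.8% of all variants. Of the EJC-enhanced windows, the authors' deposited table called 804 of 996 asparagine windows (80.7%) and 903 of 1105 glutamine windows (81.7%), against 86% of windows with other last codons, 85.7% of all stop windows and 63.6% of all variants. As lower, the authors' deposited table called 0 of the 1638 amide windows of the EJC-independent reporter, against 0.011% of windows with other last codons and 0.0104% of all stop windows, and 1 of the 2101 of the EJC-enhanced reporter, against 0% and 0.0029%. Among TGG controls with these last codons, 18 of 598 were called higher and 18 called lower for the EJC-independent reporter, and 22 and 21 of 844 for the EJC-enhanced reporter, in the authors' deposited table. The shares over all TGG windows were 4.09% higher and 4.03% lower, and 2.76% higher and 1.37% lower. The shares called move with depth. In the authors' deposited table, EJC-independent amide windows were called higher in 30.0% at a mean count of 10 to 50, 63.1% at 50 to 100 and 92.0% at 100 to 300, against 37.0%, 74.7% and 95% of windows with other last codons. From 300 to 1000, all 184 windows with asparagine and all 209 with glutamine were called in the authors' deposited table, against 99.9%. In the EJC-enhanced reporter the shares in the authors' deposited table were 56.0%, 83.8% and 92.0% in the bins up to 300, against 53.6%, 83.7% and 93.7%.

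Set against other last codons in the same context, both amides gave a smaller response in the EJC-independent reporter. The context was the same penultimate codon, stop codon and base 10, the base after the stop codon. The comparison was the mean over the other 57 sense codons, where listed in that context. Windows needed a mean count of 10 or more, so the codons averaged vary between contexts. Asparagine was lower by 0.15 on the log2 scale (difference -0.15, interval -0.21 to -0.10, 512 contexts), which is 0.899 of the fold change of the others, and glutamine by 0.21 (difference -0.21, -0.26 to -0.16, 567 contexts), or 0.864. The difference was below 0 in 66.8% of contexts for asparagine and in 74.6% for glutamine. In TGG windows the same differences were 0.01 (-0.07 to 0.10) and 0.02 (-0.05 to 0.10), and the stop windows differed from the TGG windows by -0.17 (-0.27 to -0.07) for asparagine and by -0.23 (-0.32 to -0.15) for glutamine. The difference from other last codons left out 0 before each stop codon: for asparagine it was -0.11 before TAA, -0.17 before TAG and -0.18 before TGA, and for glutamine -0.20, -0.26 and -0.17. It also left out 0 before each base at position 10, between -0.26 and -0.13, except for glutamine before A, where it was -0.11 (-0.22 to 0.01).

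The amides were covered less deeply than other last codons, so the responses were also taken within bins of mean count. Windows of both amides together averaged, in the EJC-independent reporter, 1.56 at a mean count of 10 to 50, 1.57 at 50 to 100, 1.52 at 100 to 300, 1.51 at 300 to 1000 and 1.48 above 1000. Windows with other last codons averaged 1.70, 1.80, 1.75, 1.72 and 1.70 in the same bins. The amides were thus lower in each of the 5 bins, the deepest included. For the EJC-enhanced reporter the amide averages were 2.13, 2.39, 2.35 and 2.44 in the bins up to 1000, against 2.14, 2.31, 2.33 and 2.32 for other last codons, and only 9 amide windows were deeper. Levels were also taken by the number of G or C bases in the penultimate codon. With none, EJC-independent windows averaged 1.60 for asparagine, 1.56 for glutamine and 1.76 for other last codons, and with all 3 they averaged 1.51, 1.43 and 1.74. The EJC-enhanced averages were 2.18, 2.27 and 2.26 with none, and 2.40, 2.30 and 2.28 with all 3.

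The rank of asparagine among the 20 amino acids differed between reporters. By the mean response of stop windows, asparagine ranked 14 and glutamine 17 from the top in the EJC-independent reporter, at 1.55 (SD over windows 0.63, n = 762) and 1.51 (SD 0.62, n = 876). Their neighbours in this order were leucine at 1.63, cysteine at 1.54, methionine at 1.53 and histidine at 1.49, and the ends were glycine at 2.13 and tyrosine at 1.42. Asparagine ranked 2 in the EJC-enhanced reporter at 2.35 (SD 0.93, n = 996), just below aspartate at 2.36, and glutamine ranked 11 at 2.28 (SD 0.84, n = 1105). With the sign of the response turned, the ranks would be 7 and 4 in the EJC-independent reporter and 19 and 10 in the EJC-enhanced reporter. Matched to each of the other 18 amino acids, a comparison added after the values were seen and with intervals widened for 18 comparisons, asparagine in the EJC-independent reporter was lower than 8 (alanine, arginine, aspartate, glycine, proline, serine, threonine and valine) and higher than 2 (phenylalanine and tyrosine). Glutamine was lower than 13, all except cysteine, histidine, methionine, phenylalanine and tyrosine, and higher than tyrosine. The largest gaps were to glycine, at -0.55 for asparagine and -0.62 for glutamine, and to threonine, at -0.50 and -0.56. The difference of asparagine from methionine was the only one of these 36 to leave out 0 in the EJC-enhanced reporter (0.20, 0.03 to 0.37), and in TGG windows none of 36 did in either reporter.

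Each amide was then compared with amino acids whose codons differ from its own by a single base, within the same context. Asparagine was lower than aspartate, its acid, in the EJC-independent reporter by 0.31 (difference -0.31, -0.38 to -0.24, 547 contexts, below 0 in 69.3% of them), AAC being matched with GAC and AAT with GAT. Glutamine was lower than glutamate, its acid, by 0.23 (difference -0.23, -0.33 to -0.14, 346 contexts, below 0 in 64.5%). Both differences exceeded those in TGG windows, by -0.29 (-0.43 to -0.15) and by -0.30 (-0.48 to -0.13). The same differences in the EJC-enhanced reporter were 0.01 (-0.07 to 0.10) and 0.02 (-0.08 to 0.13).

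Against the basic lysine, EJC-independent glutamine was lower by 0.23 (difference -0.23, -0.33 to -0.13), which differed from TGG windows by -0.34 (-0.52 to -0.17), and asparagine by 0.12 (difference -0.12, -0.24 to -0.01), which differed from TGG windows by -0.17 (-0.36 to 0.02). With a mean per penultimate codon taken first, this asparagine difference was -0.01 (-0.21 to 0.19). Asparagine was higher than tyrosine by 0.12 (0.06 to 0.18) and than histidine by 0.06 (0.01 to 0.11) in the EJC-independent reporter, with differences of 0.08 and 0.05 in TGG windows, from which neither could be told apart. After subtraction of matched TGG windows these 2 differences were 0.06 (-0.03 to 0.15) and 0.02 (-0.06 to 0.11). Glutamine and histidine, which share the bases CA, differed by 0.03 (-0.03 to 0.09). The EJC-enhanced reporter gave 0.14 for asparagine minus lysine (0.03 to 0.26), 0.07 for asparagine minus histidine (0.0022 to 0.14), 0.04 for asparagine minus tyrosine (-0.04 to 0.11), 0.05 for glutamine minus lysine (-0.05 to 0.15) and -0.01 for glutamine minus histidine (-0.08 to 0.05). Under alternatives, asparagine minus lysine came to hold 0 in 5 of 11 for the EJC-independent and 8 of 11 for the EJC-enhanced reporter, and asparagine minus histidine in 5 of 11 and 6 of 11. At a mean count of 50 or more, asparagine minus lysine in the EJC-enhanced reporter was -0.08 and its interval held 0, while glutamine minus lysine was -0.12 and its interval left out 0. Among TGG windows, glutamine minus glutamate was 0.16 (0.04 to 0.29) in the EJC-enhanced reporter.

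Asparagine and glutamine themselves could not be told apart in the matched comparison with the main settings. Asparagine minus glutamine was 0.05 in the EJC-independent reporter (-0.02 to 0.12) and 0.03 in the EJC-enhanced reporter (-0.06 to 0.11), with 0.01 (-0.11 to 0.12) and -0.05 (-0.14 to 0.05) in TGG windows. With mean counts of at least 100 the EJC-independent difference was 0.08 and its interval left out 0. Under alternatives, this matched difference left out 0 in 4 of 11 for the EJC-independent and 1 of 11 for the EJC-enhanced reporter. The stop minus TGG differences gave asparagine over glutamine by 0.03 (-0.06 to 0.13) in the EJC-independent reporter and by 0.10 (0.0043 to 0.20) in the EJC-enhanced reporter. Pairs that share a TGG window were counted as independent there, so an end as close to 0 as 0.0043 may not hold. Before TAA alone, the EJC-enhanced difference of asparagine from glutamine was 0.18 and left out 0.

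Synonymous codons of either amino acid could not be told apart before a stop codon with the main settings. AAC minus AAT, which differ in the last base, was 0.01 in both reporters (-0.09 to 0.12 and -0.12 to 0.14). CAG minus CAA was 0.07 in both (-0.01 to 0.15 and -0.04 to 0.17). None of the 12 comparisons of these pairs before a single stop codon left out 0. The TGG windows moved these values: AAC minus AAT was 0.20 (0.02 to 0.38) and CAG minus CAA -0.15 (-0.30 to 0.01) in EJC-independent TGG windows. After subtraction of matched TGG windows, CAG minus CAA became 0.16 in the EJC-independent and 0.20 in the EJC-enhanced reporter, and AAC minus AAT became -0.24 in the EJC-independent reporter, each leaving out 0. CAG minus CAA also left out 0 under alternatives without that subtraction. In all it did so in 3 of 11 alternatives for the EJC-independent and 2 of 11 for the EJC-enhanced reporter, and AAC minus AAT in 1 and 0.

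After both amides in the EJC-independent reporter, the response was larger before TGA than before TAG. Mean responses of asparagine windows were 1.58 before TAA, 1.45 before TAG and 1.63 before TGA, and those of glutamine windows 1.49, 1.39 and 1.65. Matched on all other bases, TGA exceeded TAG by 0.19 for asparagine (0.07 to 0.32) and by 0.22 for glutamine (0.10 to 0.34), against 0.19 for other last codons (0.18 to 0.21). TGA minus TAA was 0.05 for asparagine (-0.07 to 0.18) and 0.12 for glutamine (0.03 to 0.22), against 0.15 for other last codons. TAA minus TAG was 0.07 for asparagine (-0.06 to 0.20) and 0.11 for glutamine (0.02 to 0.21), against 0.05. None of these 6 differences between stop codons could be told apart from that of other last codons. TGA minus TAA depends on the depth kept: with mean counts of at least 100 it was 0.25 for asparagine, leaving out 0, and 0.07 for glutamine, holding 0.

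In the EJC-enhanced reporter, TAA and not TGA had the highest mean after asparagine, while TAG was lowest in both reporters. TGA minus TAA after asparagine held 0 in each, at 0.05 in the EJC-independent and -0.05 in the EJC-enhanced reporter. Between reporters, in contexts found in both tables, it differed by 0.17 (-0.04 to 0.38), which also held 0. Asparagine windows of the EJC-enhanced reporter averaged 2.45 before TAA, 2.27 before TAG and 2.34 before TGA, and TAA exceeded TAG by 0.21 (0.07 to 0.36, 257 contexts). That was 0.17 more than for other last codons (0.03 to 0.32) and 0.25 more than for glutamine (0.06 to 0.44), whose windows averaged 2.24, 2.24 and 2.36. At a mean count of 50 or more the asparagine difference was 0.09 (-0.05 to 0.23). Asparagine exceeded other last codons by 0.13 (0.02 to 0.23) before TAA, against -0.0048 before TAG and 0.01 before TGA. The remaining pairs of stop codons after either amide held 0 in this reporter.

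The base after the stop codon made average differences of at most 0.15 in either direction. Asparagine windows of the EJC-independent reporter averaged 1.60 before A, 1.49 before C, 1.58 before G and 1.57 before T, and no base could be told apart from the other 3 in matched windows. Glutamine windows averaged 1.65, 1.45, 1.45 and 1.53 before the same bases. For glutamine, A exceeded the other bases by 0.12 (0.01 to 0.24) and G fell below them by 0.14 (difference -0.14, -0.25 to -0.03). The glutamine value for G was 0.14 below that of other last codons (difference -0.14, -0.26 to -0.03), whose own was 0.0037. Only G after glutamine left out 0 in the EJC-enhanced reporter, at -0.14 (-0.27 to -0.01), and with precision weights it was -0.05 (-0.15 to 0.06). That value held 0 under 6 of 11 alternatives and was 0.08 at a mean count of 100 or more. In the EJC-independent reporter, A after glutamine held 0 under 5 of 11 and G under 4 of 11. Before TGA alone in the EJC-independent reporter, both intervals after glutamine held 0, with -0.01 for A and 0.02 for G. Base 10 was also compared in TGG windows, for asparagine, glutamine and other last codons. In the EJC-enhanced reporter 3 of those intervals left out 0 and 9 held it, the same numbers as in stop windows. In the EJC-independent reporter 1 left out 0 and 11 held it, against 4 and 8 in stop windows.

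The 12 combinations of stop codon and base 10 show the range of these averages. In the EJC-independent reporter, asparagine windows were highest before TGA and G at 1.73 (SD 0.73, n = 47) and lowest before TAG and G at 1.37 (SD 0.61, n = 59), and glutamine windows were highest before TGA and T at 1.72 (SD 0.90, n = 77) and lowest before TAG and G at 1.29 (SD 0.53, n = 66). The others lay from 1.39 to 1.70 for asparagine and from 1.31 to 1.71 for glutamine. Asparagine windows of the EJC-enhanced reporter were highest before TAA and A at 2.53 (SD 0.81, n = 67) and lowest before TAG and A at 2.09 (SD 0.87, n = 62). Glutamine was highest before TGA and C at 2.42 (SD 0.84, n = 111) and lowest before TAA and T at 2.15 (SD 0.81, n = 100), with TAG and G close by at 2.15 (SD 0.84, n = 92). These highs and lows were picked by their values and overlap widely in their SDs.

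No penultimate amino acid could be told apart from the others after either amide. Each of the 20 was compared with other penultimate codons in the same bases 4 to 10, with intervals widened for 20 comparisons, and 0 of 20 left out 0 for asparagine and for glutamine in either reporter. The median half-width of those intervals was 0.41 for asparagine and 0.34 for glutamine in the EJC-independent reporter and 0.49 and 0.39 in the EJC-enhanced reporter, from 5 to 24 contexts per amino acid. A penultimate asparagine before a last asparagine gave -0.04 (-0.47 to 0.38) in the EJC-independent reporter and -0.18 (-0.97 to 0.61) in the EJC-enhanced reporter. Glutamine before glutamine gave -0.19 (-0.56 to 0.17) and 0.09 (-0.48 to 0.65). The mixed pairs, asparagine before glutamine and glutamine before asparagine, gave -0.08 and -0.24 in the EJC-independent reporter and 0.11 and 0.06 in the EJC-enhanced reporter. Before asparagine, the ends of the order in the EJC-independent reporter were methionine, isoleucine and lysine at 0.36, 0.33 and 0.28 and glutamate, glutamine and cysteine at -0.53, -0.24 and -0.19. Before glutamine they were tryptophan, lysine and valine at 0.82, 0.54 and 0.20 and glutamine, arginine and methionine at -0.19, -0.18 and -0.17. Before asparagine in the EJC-enhanced reporter they were isoleucine, threonine and alanine at 0.25, 0.24 and 0.13 and lysine, cysteine and asparagine at -0.49, -0.44 and -0.18. Before glutamine they were valine, isoleucine and alanine at 0.24, 0.22 and 0.13 and glutamate, glycine and tryptophan at -0.40, -0.33 and -0.30.

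Each value was also set against the same penultimate amino acid before other last codons, with plain 95% intervals. These normal intervals rest on as few as 5 contexts, and the 40 differences per reporter are not independent. More than 1 in 20 may therefore leave out 0 by chance. In the EJC-independent reporter 5 of 40 differences left out 0, and in the EJC-enhanced reporter 2 of 40. Penultimate proline was among them for both amides: its value relative to other penultimate codons was -0.15 before glutamine and -0.01 before asparagine, against 0.11 before other last codons, differences of -0.26 (-0.37 to -0.15) and -0.12 (-0.23 to -0.01). Penultimate lysine gave 0.54 before glutamine in 9 contexts, against -0.07 before other last codons, a difference of 0.61 (0.22 to 1.00). Alanine (-0.17) and leucine (0.17) were the other differences, both before glutamine. The EJC-enhanced ones were threonine before asparagine (0.21) and valine before glutamine (0.27).

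Single bases of the penultimate codon were compared after the values were seen, for both amides together and with intervals widened for 12 comparisons. In the EJC-independent reporter, windows with T at base 2 exceeded those with other bases there by 0.15 (0.05 to 0.25), against 0.06 for other last codons, from which the amides differed by 0.09 (-0.01 to 0.20). For the EJC-enhanced reporter, G at base 2 gave -0.23 (-0.38 to -0.07), against -0.02 for other last codons, a difference of -0.21 (-0.37 to -0.05). T at base 1 gave -0.13 (-0.26 to -0.0025) in that reporter, and its difference from other last codons was -0.12 (-0.25 to 0.02). The remaining bases held 0 in both reporters. Of these, the difference from other last codons left out 0 for C at base 2 in the EJC-independent reporter, at -0.11 (-0.21 to -0.01), and for A at base 3 in the EJC-enhanced reporter, at -0.18 (-0.34 to -0.02).

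The reporters differed in where the amides stood against other last codons. Over windows listed in both tables with their TGG partners, the stop minus TGG response was smaller in the EJC-independent than in the EJC-enhanced reporter by 0.84 for asparagine (difference -0.84, -0.95 to -0.73, 466 windows), by 0.73 for glutamine (difference -0.73, -0.83 to -0.63, 601 windows) and by 0.53 for other last codons (difference -0.53, -0.54 to -0.51). The gap between reporters was therefore wider for asparagine by 0.31 (difference -0.31, -0.43 to -0.20) and for glutamine by 0.20 (difference -0.20, -0.30 to -0.10) than for other last codons. In contexts found in both tables, asparagine minus other last codons was -0.18 in the EJC-independent and 0.11 in the EJC-enhanced reporter, a difference of -0.29 (-0.37 to -0.20). Glutamine minus other last codons was -0.22 in the EJC-independent and 0.03 in the EJC-enhanced reporter, a difference of -0.25 (-0.33 to -0.18). Over all contexts of the EJC-enhanced reporter these values were 0.04 (-0.02 to 0.11, 610 contexts) for asparagine and -0.02 (-0.08 to 0.03, 640 contexts) for glutamine. The asparagine value there depends on depth: with mean counts of at least 50 it was 0.10, and at 100 or more 0.12, each leaving out 0. Measured as stop minus TGG, asparagine exceeded other last codons in the EJC-enhanced reporter by 0.10 (0.03 to 0.18) and glutamine by 0.0043 (-0.06 to 0.07). The asparagine value also holds lower TGG windows. Matched on context, asparagine minus other last codons was -0.07 in EJC-enhanced TGG windows, with an interval that held 0, against 0.04 in stop windows. Stop and TGG windows differed in this by 0.11 (0.01 to 0.21).

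Across the 1394 amide windows shared by both tables, which share a sequence but no library, the responses of the reporters had a Pearson correlation of 0.02. It was 0.01 over the 184 windows with a mean count of 300 or more in both, and both values are given as a description.

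Over all windows kept, the spread among single amide windows was close to their deposited errors in the EJC-independent reporter and wider in the EJC-enhanced reporter. At a mean count of 300 or more this changed. The EJC-independent SDs of 0.29 and 0.30 then exceeded root mean square errors of 0.21 for both amides. The EJC-enhanced SD exceeded the error for asparagine (0.75 against 0.47) but not for glutamine (0.44 against 0.48). The SD over EJC-independent windows was 0.63 for asparagine and 0.62 for glutamine, with root mean square deposited errors of 0.61 and 0.57. At a mean count of 300 or more, the SD was 0.29 for 262 asparagine windows and 0.30 for 301 glutamine windows, and 0.20 and 0.22 were left after the mean squared error was taken off, against 0.27 for other last codons. Values for other last codons pool 18 amino acids whose means differ. They therefore hold spread between amino acids as well and are not like for like. Over all EJC-enhanced windows the SD was 0.93 for asparagine and 0.84 for glutamine, with root mean square errors of 0.76 and 0.73. At a mean count of 300 or more in that reporter, the SD was 0.75 for 98 asparagine windows, of which 0.58 was left after the mean squared error was taken off, and these hold the window with the highest response, 7.23 in the authors' deposited table. It was 0.44 for 133 glutamine windows. For those glutamine windows the squared error exceeded the variance, so no value was left, against 0.12 for other last codons.

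The windows at the ends of the range, with a mean count of 100 or more, were picked by their values and are a description with no test. The highest and lowest of each amide in each reporter are shown to give the letters behind the range, 5′ to 3′ with the last codon in capitals.
EJC-independent, asparagine, highest: gctAACtgag
EJC-independent, asparagine, lowest: tcgAATtagg
EJC-independent, glutamine, highest: ctaCAGtaga
EJC-independent, glutamine, lowest: tttCAAtagt
EJC-enhanced, asparagine, highest: tctAATtaag
EJC-enhanced, asparagine, lowest: tctAATtagc
EJC-enhanced, glutamine, highest: gtgCAGtagt
EJC-enhanced, glutamine, lowest: cgaCAGtaag

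In the EJC-independent reporter, the authors' deposited table gave these asparagine windows responses of 2.92 ± 0.44 and 0.34 ± 0.58, and the glutamine windows 3.27 ± 0.46 and 0.50 ± 0.37 (± deposited standard error). In the EJC-enhanced reporter, the authors' deposited table gave 7.23 ± 0.78 and 0.12 ± 0.78 for asparagine and 4.86 ± 0.81 and -1.94 ± 1.82 for glutamine, the last with no adjusted p. Both asparagine windows of the EJC-enhanced reporter have the serine codon TCT before AAT and differ only after the last codon. The 3 lowest windows of each amide in the EJC-independent reporter lay between 0.34 and 0.58 and were not called in the authors' deposited table.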

How the data were processed

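RNA of reporter variants was compared between SMG1i and DMSO in 12 libraries of HEK293T cells. For each reporter the authors deposited a table that compares the treatments once per variant; columns with values per library number 0. Per the file headers, each row of a deposited table holds a mean normalized count (the base mean, a signal never below 0), a log2 fold change, its standard error (on the log2 scale, never below 0), a Wald score as the test statistic, a p-value, and that p-value adjusted. Per the submitters' processing notes, DESeq and DESeq2 were used; versions, read processing and the assignment of reads to variants were not stated by the sources used here. The sign of the deposited log2 fold change was turned, so that positive values are read as more RNA under SMG1i, a reading that rests on stop windows lying on one side of TGG windows; the tables do not state the numerator. The Benjamini-Hochberg adjustment recomputed over each table differed from the deposited adjusted p-values by at most 3.33e-16.

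A mean normalized count of at least 10 was required, which kept 41740 of 41955 in the EJC-independent and 51167 of 51306 in the EJC-enhanced table, among them 1638 and 2101 stop windows with asparagine or glutamine. Adjusted p-values were missing in the authors' deposited table for 0 and 10 of these windows. Mean normalized counts sum to 31033950 and 18874316 per library; they are averages over the libraries of a reporter, so depth per library is unknown, and no counting interval is given. Differences were taken within matched contexts and averaged with equal weight, and a difference counts as present where its normal 95% interval over contexts leaves out 0, with intervals widened for 20 penultimate amino acids. Contexts share libraries and, in part, the same windows, but were counted as independent. The intervals may therefore be too narrow, and they say nothing of the spread between cultures. No p-values were computed beyond the deposited ones. Alternatives were other count minimums, weights from deposited standard errors, medians, means per penultimate codon, subtraction of TGG windows, each stop codon alone, and a term for the number of G or C bases. Some contrasts of stop windows were run on simulated responses with known effects and errors drawn independently per window. This checks the calculation and does not show that the intervals hold for these data. Python 3.11.15, numpy 2.4.6, pandas 2.3.3 and scipy 1.17.1 were used.

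Named contexts were the 4 codons, the 12 pairs of stop codon and base 10, and in penultimate place asparagine, glutamine and the 3 highest and 3 lowest amino acids. Named windows were the deepest matched set per codon and, among the 3 highest and 3 lowest windows per amide and reporter whose mean count was at least 100, the ends. Anything else named was chosen after its values were seen. The members and lists were chosen with earlier results of these data known.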

Additional observations from a re-analysis of the deposited data

Results flagged for a closer look

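The amide windows with a stop codon in penultimate place and TGG at bases 7 to 9 were left out of the comparisons, since the reading frame ends upstream of the last codon. They hold a stop codon themselves and are not controls, and their response was above that of TGG controls with sense codons. In the EJC-independent reporter the mean was 2.00 for asparagine (SD 0.26, n = 3 windows) and 1.90 for glutamine (SD 0.80, n = 10), against -0.0023 (SD 0.67, n = 274) and -0.0056 (SD 0.60, n = 324) for their sense controls. In the EJC-enhanced reporter it was 1.82 for asparagine (SD 0.82, n = 10) and 1.82 for glutamine (SD 1.26, n = 11), against -0.04 (SD 0.70, n = 410) and 0.04 (SD 0.72, n = 434). The highest sense controls reached 3.33 and 2.64 in the EJC-independent and 2.45 and 3.93 in the EJC-enhanced reporter, so single windows overlapped.

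Of 26 contrasts computed in contexts shared by both tables, 10 differed between the EJC-independent and the EJC-enhanced reporter, by plain 95% intervals of which about 1 in 20 leaves out 0 by chance. The difference between reporters, EJC-independent minus EJC-enhanced, was -0.29 for asparagine and -0.25 for glutamine against other last codons. Among single-base neighbours it was -0.32 for asparagine minus aspartate, -0.26 for asparagine minus lysine, -0.11 for asparagine minus histidine and -0.19 for glutamine minus lysine. For glutamine minus glutamate the difference between reporters was -0.11 (-0.30 to 0.07), which held 0, although this contrast left out 0 in the EJC-independent reporter alone. TAA minus TAG moved in opposite directions in the shared contexts. For asparagine it was -0.01 in the EJC-independent and 0.21 in the EJC-enhanced reporter, a difference of -0.22 (-0.44 to -0.0060). For glutamine it was 0.10 and -0.14, a difference of 0.24 (0.06 to 0.42). Over all contexts, it was 0.07 for asparagine in the EJC-independent reporter and -0.04 for glutamine in the EJC-enhanced reporter. For C against the other bases at position 10, the difference between reporters was -0.18 for asparagine and -0.20 for glutamine.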

How the results depend on the processing

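No paired analysis was possible because the tables carry no value per library, and for the same reason no replicate could be left out. Across 87 differences and 837 values under alternatives, 631 kept their direction and their side of 0, 46 came to hold 0 and 39 to leave it out with the same sign, and 121 changed sign, of which 112 held 0 in both forms. In each alternative computed, stop minus TGG stayed between 1.46 and 1.62 for asparagine and between 1.41 and 1.63 for glutamine in the EJC-independent reporter, and between 2.30 and 2.43 and between 2.20 and 2.35 in the EJC-enhanced reporter. The EJC-independent differences from other last codons stayed between -0.22 and -0.11 for asparagine and between -0.26 and -0.17 for glutamine and left out 0 under each alternative, as did both gaps between reporters, between -0.95 and -0.74 and between -0.84 and -0.67. At a mean count of 100 or more, the authors' deposited table had 423 asparagine and 511 glutamine windows called higher in the EJC-enhanced reporter, against 804 and 903 at 10, with fewer windows kept. Means per penultimate codon were not computed for penultimate amino acids, TGG windows were not subtracted again from differences that hold them, single stop codons were not used for pairs of stop codons, and differences between differences, from each single amino acid and by penultimate base had the main settings only. Depth limits the rest: single windows have median errors of 0.40 to 0.67, and the causes of the changes below were not tested.

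Changes of sign included, differences that left out 0 as reported came to hold it in 27 of 88 alternatives for single-base neighbours, 15 of 33 for base 10 and 9 of 40 for pairs of stop codons. The neighbours lost were asparagine minus lysine (5 of 11 in the EJC-independent, 8 of 11 in the EJC-enhanced reporter), asparagine minus histidine (5 and 6 of 11) and, in the EJC-independent reporter, asparagine minus tyrosine (2 of 11) and glutamine minus lysine (1 of 11). The pairs lost were, in 8 alternatives each, TGA minus TAA (4) and TAA minus TAG (2) after glutamine in the EJC-independent reporter and TAA minus TAG after asparagine in the EJC-enhanced reporter (3). Base 10 was lost for A (5 of 11) and G (4 of 11) after glutamine in the EJC-independent reporter and for G after glutamine in the EJC-enhanced reporter (6 of 11). Differences that held 0 as reported came to leave it out 7 times for neighbours, 7 for pairs of stop codons, 9 for base 10 and 3 for penultimate amino acids, among them TGA minus TAA, in 3 of 8 after asparagine in the EJC-independent reporter and in 4 of 8 after glutamine in the EJC-enhanced reporter.

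The values that newly left out 0 for asparagine against glutamine, for either against other last codons and for synonymous codons, and those of other comparisons that left out 0 after a change of sign, were as follows. A minimum of 50 gave, in the EJC-independent reporter, 0.059 for asparagine minus glutamine. A minimum of 50 gave, in the EJC-enhanced reporter, 0.10 for asparagine minus other last codons, 0.11 for CAG minus CAA and -0.12 for glutamine minus lysine. A minimum of 100 gave, in the EJC-independent reporter, 0.083 for asparagine minus glutamine. A minimum of 100 gave, in the EJC-enhanced reporter, 0.12 for asparagine minus other last codons and -0.19 for glutamine minus lysine. Precision weights gave, in the EJC-independent reporter, 0.063 for asparagine minus glutamine and 0.067 for CAG minus CAA. Precision weights gave, in the EJC-enhanced reporter, 0.085 for asparagine minus other last codons and 0.055 for glutamine minus histidine. Medians over contexts gave, in the EJC-enhanced reporter, 0.089 for asparagine minus other last codons. Means per penultimate codon gave, in the EJC-independent reporter, 0.12 for CAG minus CAA. Subtraction of TGG windows gave, in the EJC-independent reporter, -0.24 for AAC minus AAT and 0.16 for CAG minus CAA. Subtraction of TGG windows gave, in the EJC-enhanced reporter, 0.086 for asparagine minus other last codons and 0.20 for CAG minus CAA. TAA alone gave, in the EJC-enhanced reporter, 0.18 for asparagine minus glutamine and 0.13 for asparagine minus other last codons. The term for G or C gave, in the EJC-independent reporter, 0.087 for asparagine minus glutamine.

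Values that changed sign and held 0 were as follows. No count minimum gave, in the EJC-enhanced reporter, -0.021 for penultimate asparagine before glutamine. A minimum of 50 gave, in the EJC-independent reporter, -0.018 for glutamine minus histidine and 0.025 for penultimate asparagine before asparagine. A minimum of 50 gave, in the EJC-enhanced reporter, 0.030 for glutamine minus other last codons, -0.014 for AAC minus AAT, -0.025 for glutamine minus glutamate and -0.078 for asparagine minus lysine. It also gave 0.050 for glutamine minus histidine, 0.034 for base 10 A after asparagine, 0.055 for base 10 A after glutamine and -0.018 for base 10 T after glutamine. Its further values were 0.15 for penultimate glutamate before glutamine and -0.011 for penultimate asparagine before glutamine. A minimum of 100 gave, in the EJC-independent reporter, -0.039 for AAC minus AAT, -0.030 for glutamine minus histidine, -0.020 for base 10 T after asparagine, 0.0029 for penultimate cysteine before asparagine and 0.019 for penultimate asparagine before asparagine. A minimum of 100 gave, in the EJC-enhanced reporter, 0.0089 for glutamine minus other last codons, -0.027 for AAC minus AAT, -0.074 for glutamine minus glutamate and -0.0066 for asparagine minus lysine. It also gave 0.037 for glutamine minus histidine, 0.11 for base 10 A after asparagine, -0.13 for base 10 C after asparagine and 0.032 for base 10 G after asparagine. Its further values were 0.035 for penultimate cysteine before asparagine, -0.10 for penultimate glutamine before asparagine, 0.080 for base 10 G after glutamine, -0.12 for base 10 T after glutamine and -0.36 for penultimate glutamine before glutamine. Precision weights gave, in the EJC-independent reporter, -0.024 for glutamine minus histidine, -0.036 for TAA minus TAG after asparagine, 0.075 for penultimate glutamate before asparagine, 0.12 for penultimate asparagine before asparagine and -0.026 for base 10 T after glutamine. Precision weights gave, in the EJC-enhanced reporter, 0.033 for glutamine minus other last codons, -0.015 for glutamine minus lysine, 0.021 for base 10 A after asparagine and -0.0070 for base 10 C after asparagine. It also gave 0.022 for penultimate asparagine before asparagine, 0.012 for base 10 A after glutamine, -0.011 for base 10 T after glutamine and -0.059 for penultimate glutamine before glutamine. Medians over contexts gave, in the EJC-independent reporter, -0.0012 for base 10 A after asparagine, -0.0022 for base 10 T after asparagine and -0.0010 for base 10 T after glutamine. Medians over contexts gave, in the EJC-enhanced reporter, 0.022 for glutamine minus other last codons, -0.012 for TGA minus TAG after asparagine, 0.047 for base 10 A after asparagine and 0.17 for penultimate asparagine before asparagine. It also gave 0.053 for TAA minus TAG after glutamine, 0.0003 for base 10 A after glutamine, -0.017 for penultimate isoleucine before glutamine, -0.12 for penultimate glutamine before glutamine and 0.11 for penultimate tryptophan before glutamine. Means per penultimate codon gave, in the EJC-independent reporter, -0.061 for AAC minus AAT, -0.014 for TGA minus TAA after asparagine, -0.12 for base 10 A after asparagine, -0.0015 for base 10 G after asparagine and 0.024 for base 10 C after glutamine. Means per penultimate codon gave, in the EJC-enhanced reporter, -0.079 for AAC minus AAT and -0.023 for glutamine minus glutamate. Subtraction of TGG windows gave, in the EJC-independent reporter, -0.046 for asparagine minus glutamine, -0.054 for base 10 G after asparagine, -0.060 for base 10 T after asparagine, -0.14 for penultimate isoleucine before asparagine and 0.13 for penultimate asparagine before glutamine. Subtraction of TGG windows gave, in the EJC-enhanced reporter, -0.12 for glutamine minus glutamate, 0.029 for glutamine minus histidine, -0.011 for glutamine minus lysine and 0.13 for base 10 A after asparagine. It also gave -0.0091 for base 10 C after asparagine, -0.082 for penultimate alanine before asparagine, 0.10 for base 10 A after glutamine and 0.17 for penultimate tryptophan before glutamine. TAA alone gave, in the EJC-independent reporter, -0.099 for base 10 T after asparagine, 0.38 for penultimate cysteine before asparagine and 0.036 for base 10 C after glutamine. TAA alone gave, in the EJC-enhanced reporter, -0.15 for AAC minus AAT, -0.079 for glutamine minus glutamate, 0.12 for base 10 A after asparagine and -0.10 for penultimate glutamine before asparagine. It also gave -0.12 for base 10 T after glutamine, -0.047 for penultimate asparagine before glutamine and -0.044 for penultimate valine before glutamine. TAG alone gave, in the EJC-independent reporter, -0.025 for glutamine minus histidine, 0.0031 for base 10 C after asparagine and -0.16 for base 10 G after asparagine. TAG alone gave, in the EJC-enhanced reporter, -0.0029 for asparagine minus glutamine, -0.0048 for asparagine minus other last codons, -0.065 for asparagine minus aspartate, 0.028 for base 10 A after glutamine and -0.076 for penultimate isoleucine before glutamine. TGA alone gave, in the EJC-independent reporter, -0.0016 for asparagine minus glutamine, -0.12 for AAC minus AAT, -0.14 for base 10 A after asparagine and -0.011 for base 10 A after glutamine. It also gave 0.021 for base 10 G after glutamine, 0.17 for penultimate asparagine before glutamine and 0.036 for penultimate arginine before glutamine. TGA alone gave, in the EJC-enhanced reporter, -0.10 for asparagine minus glutamine, 0.049 for glutamine minus other last codons, -0.028 for CAG minus CAA and -0.094 for asparagine minus aspartate. It also gave 0.038 for glutamine minus histidine, 0.050 for base 10 A after asparagine, -0.012 for base 10 C after asparagine and 0.11 for base 10 G after asparagine. Its further values were -0.11 for base 10 T after asparagine, -0.31 for penultimate alanine before asparagine, 0.17 for penultimate asparagine before asparagine and -0.31 for penultimate glutamine before asparagine. Its remaining values were 0.0087 for base 10 A after glutamine and -0.21 for penultimate glutamine before glutamine. The term for G or C gave, in the EJC-independent reporter, -0.033 for AAC minus AAT and 0.0028 for penultimate asparagine before asparagine.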
